A study of Mus musculus with 6 samples.

Results

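In migratory type 1 conventional dendritic cells (cDC1), 9 genes were followed: Irf8, Batf3, Clec9a, Xcr1 and Plpp1, which mark the cDC1 lineage, and Sirpa, Epcam, Itgae and Ptprc, whose proteins serve to separate dendritic cell subsets or to gate them. They were chosen by gene symbol, and all 9 of the 9 were among the 12780 genes measured, each by 1 probe set that carries no other gene's symbol. The groups compared were 3 anti-CD40 stimulated samples and 3 unstimulated samples, each on 1 Affymetrix array. Both groups were wild-type C57BL/6 cells from skin-draining lymph nodes, and both were sorted as negative for B220, CD326 and Sirpa, positive for XCR1 and CD40, high for MHC II and intermediate for CD11c. The labels call the samples biological replicates without naming animals, so p-values measure the spread between these samples, which may in part be technical. The sources used here give neither the route, dose and duration of anti-CD40 nor the age and sex of the mice.

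cDC1 are the dendritic cells that take up material from dying cells and present it to CD8 T cells. Their development depends on the transcription factors IRF8 and BATF3, which bind DNA together at composite sites, and the mature cells carry the dead-cell receptor CLEC9A and the chemokine receptor XCR1. Helper T cells signal to dendritic cells by engaging CD40, and an antibody to CD40 stands in for that contact.

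The 2 transcription factor genes had the widest spread between replicates of the 9, as described below, so the sequence before their start sites is shown. Each is the 250 bases upstream of the RefSeq start on GRCm38.p6, plus strand, 5′ to 3′. Irf8 lies on chromosome 8 (window chr8:120736108-120736357, the first of 2 start sites given) and Batf3 on chromosome 1 (window chr1:191098164-191098413). Capitals mark matches to TTCNNNGAA, the gamma-activated sequence through which STAT factors act.
Irf8: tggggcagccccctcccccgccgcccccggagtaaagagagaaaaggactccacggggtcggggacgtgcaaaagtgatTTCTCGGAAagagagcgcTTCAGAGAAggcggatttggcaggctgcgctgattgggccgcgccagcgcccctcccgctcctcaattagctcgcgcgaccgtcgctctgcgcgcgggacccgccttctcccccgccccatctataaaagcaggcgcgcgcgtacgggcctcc
Batf3: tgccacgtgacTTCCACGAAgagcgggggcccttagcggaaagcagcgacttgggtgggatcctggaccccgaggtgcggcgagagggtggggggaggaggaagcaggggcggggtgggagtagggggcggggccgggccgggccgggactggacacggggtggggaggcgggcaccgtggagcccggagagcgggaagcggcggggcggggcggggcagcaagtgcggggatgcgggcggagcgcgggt
The Irf8 window held 2 matches, beginning 171 and 153 bases before the start and not overlapping each other, and the Batf3 window held 1, beginning 239 bases before it. The window of the second Irf8 start and those of Clec9a, Xcr1, Epcam and Ptprc held 0, and 6 of the 9 genes had a window. Of 32851 RefSeq promoter windows of the same length, 7.02% held at least 1 such match and 0.317% held 2 or more. The 4 other motifs searched on both strands had 0 matches in either window: the interferon response element, as GAAA and GAAA with 2 bases between them (in 2.98% of windows), the ETS-IRF composite element, as GGAA and GAAA with 2 bases between them (2.3%), the AP-1 element TGANTCA (6.75%) and the NF-kB element, searched in its usual degenerate form (7.25%). A match is a description of the letters and not a measured binding site.

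The values are intensities on a linear scale, and log2 of them was used for every difference. Taking for each probe set the group with the higher geometric mean, the lowest such mean in the table was 20.001, as a filter at an intensity of 20 (4.32 on the log2 scale) would leave, although the labels name none. That value is called the inclusion bound here. All 9 genes lay above it in both groups, and 1 single value, that of Xcr1 in unstimulated replicate 1, lay below it. The median intensity of all probe sets was between 51.9 and 56.3 per array. The interquartile range of log2 intensities differed between arrays, at 2.31, 1.75 and 2.03 in stimulated replicates 1, 2 and 3 and at 2.19, 1.74 and 1.92 in unstimulated replicates 1, 2 and 3. The arrays numbered 1 were thus the widest and those numbered 2 the narrowest in both groups.

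Between stimulated and unstimulated cDC1 none of the 9 genes passed the test over all genes. Plpp1, a lipid phosphatase gene, was 1.98-fold lower in stimulated cells and Epcam, an adhesion gene of the excluded cells, had a ratio of 1.49, each with groups that did not overlap. The groups were compared with limma, a linear model that shares information on variance across genes, and a gene passed at an adjusted p under 0.05 over 12780 genes. Intervals are given per gene and are not adjusted for the number of genes. Positive differences were found for 6 of the 9 genes and negative ones for 3. Their median was 0.17, beside 0.005 over all genes. In the limma fit 0 of the 9 passed, beside 0.0156% of all genes (2 of 12780, both higher). At an unadjusted p under 0.05 there were 2, Plpp1 and Epcam, where 3.49% of all genes were that low. The groups did not overlap for 3 of the 9, Epcam and Sirpa higher and Plpp1 lower, beside 7.14% of all genes (3.68% higher and 3.46% lower). With 9 genes these shares rest on 2 and 3 genes.

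Irf8, which encodes the transcription factor IRF8, needed for cDC1 to develop, was far above the inclusion bound in all samples. Its intensity was 5315.7, 1736.3 and 3499.4 in stimulated replicates 1, 2 and 3, against 3749.6, 1175.1 and 1956.7 in unstimulated replicates 1, 2 and 3. Replicate 1 was the highest and replicate 2 the lowest in both groups, the same order as the interquartile ranges of the arrays, and the groups overlapped. The highest sample exceeded the lowest 3.06-fold among stimulated and 3.19-fold among unstimulated samples, more than the 1.55-fold ratio between the group geometric means. Much of this spread was shared by same-numbered samples, whose log2 differences were 0.5, 0.56 and 0.84 for replicates 1, 2 and 3. The labels state no pairing, and the fit with the replicate number as a block is given in the closing section. On the log2 scale Irf8 averaged 11.64 ± 0.82 in stimulated and 11.00 ± 0.84 in unstimulated cells (SD, n = 3 each). The difference of 0.64 ± 0.52 (SE) had a 95% interval of -0.592 to 1.862, which spans a ratio of 0.663 to 3.64 (limma adjusted p = 0.99997). When the fit also held the interquartile ranges of the arrays, the difference was 0.37 with a narrower 95% interval of 0.003 to 0.743. It did not pass there either (limma adjusted p = 0.62871).

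Batf3 encodes the partner of JUN proteins and of IRF8 at composite sites, and it too was well above the lower bound. Its intensity was 803.3, 688.7 and 1171.9 in stimulated replicates 1, 2 and 3, against 861.4, 375.2 and 867.3 in unstimulated replicates 1, 2 and 3. Unstimulated replicate 2 stood below the 5 other samples, and the remaining values overlapped between groups. The log2 means were 9.76 ± 0.39 in stimulated and 9.35 ± 0.70 in unstimulated cells (SD, n = 3 each), a difference of 0.40 ± 0.37 (SE) with a 95% interval of -0.471 to 1.278 (limma adjusted p = 0.99997). Without unstimulated replicate 2 the difference of Batf3 was 0.002.

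Spread between replicates differed widely among the 9 genes. The within-group SD of Irf8, 0.83, was larger than that of 97.1% of all genes, and that of Batf3, 0.57, larger than that of 87.7%, where the median of all genes was 0.28. Sirpa stood at the other end, with a within-group SD of 0.06 that was larger than in only 1.08% of genes.

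**Figure D1:**
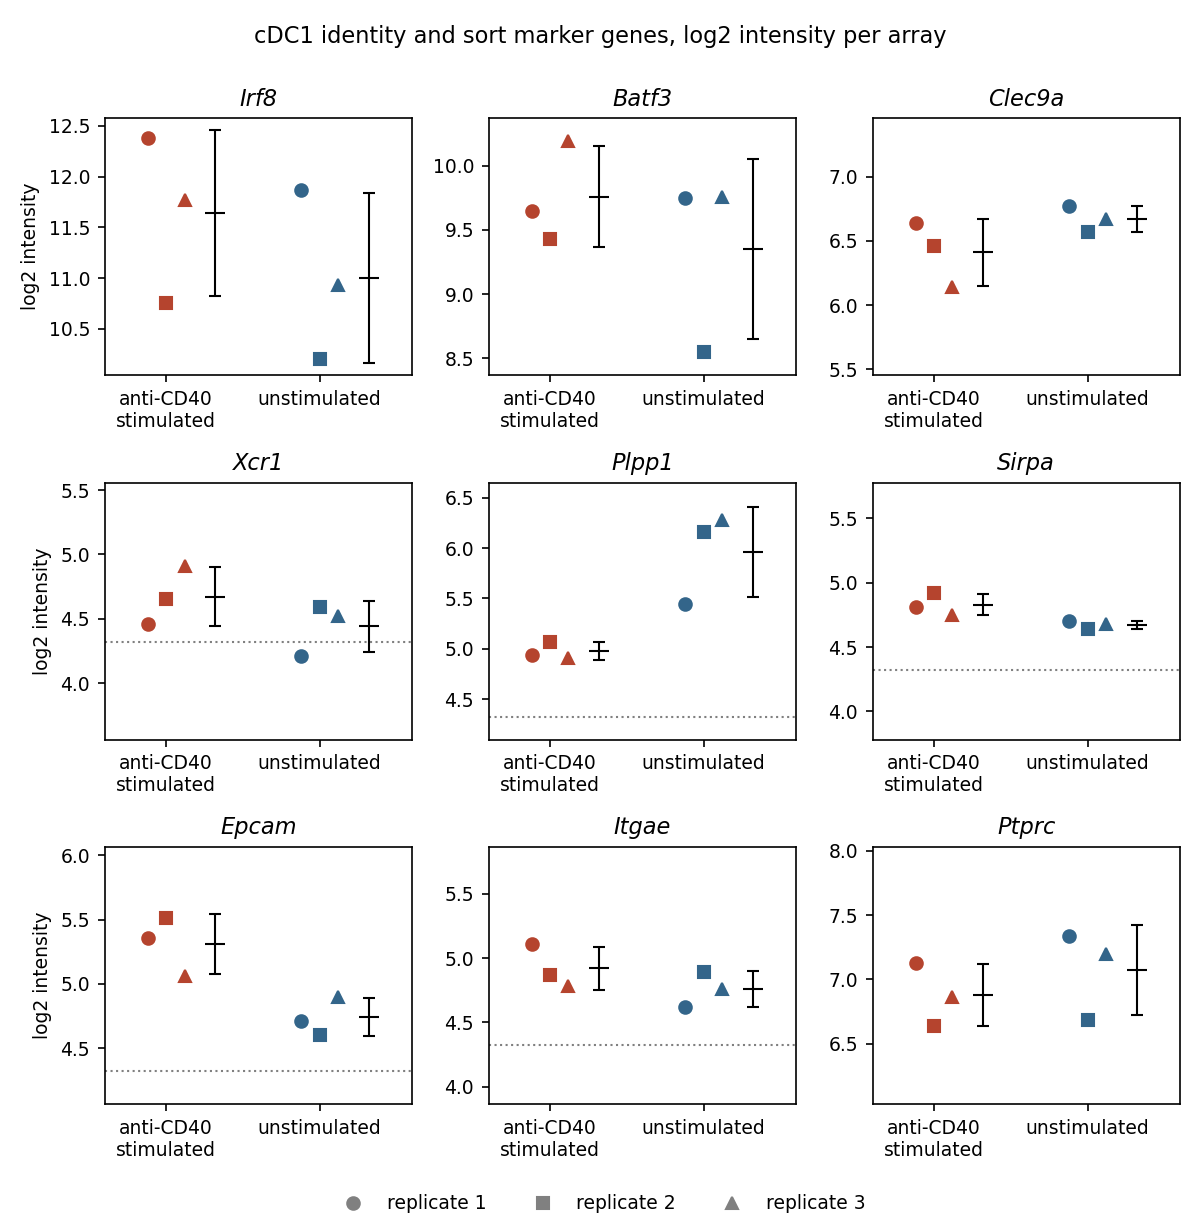
Log2 intensity of each of the 9 genes (vertical axis, a separate scale per panel) in the 3 anti-CD40 stimulated (red, left) and the 3 unstimulated samples (blue, right), with the mean and SD as black bars and the inclusion bound of 4.32 as a dotted line where it falls within the panel. Plpp1 was lower and Epcam and Sirpa higher in all 3 stimulated samples, while Irf8 was highest in replicate 1 and lowest in replicate 2 of both groups.

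Clec9a encodes the C-type lectin receptor that recognises actin filaments exposed by dead cells. Its intensity was 99.8, 88.1 and 70.4 in stimulated replicates 1, 2 and 3, against 108.9, 95.1 and 101.9 in unstimulated replicates 1, 2 and 3. Stimulated replicates 2 and 3 lay below every unstimulated sample, and stimulated replicate 1 lay among them. The difference was -0.26 on the log2 scale with a 95% interval of -0.696 to 0.182 (limma adjusted p = 0.99997), and it was -0.12 without stimulated replicate 3.

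Xcr1 encodes the receptor for the chemokine XCL1 and was the positive gate of the sort, yet its probe set was close to the inclusion bound in both groups. Its intensity was 22.04, 25.07 and 30.15 in stimulated replicates 1, 2 and 3, against 18.46, 24.02 and 22.9 in unstimulated replicates 1, 2 and 3. Stimulated replicates 2 and 3 were the highest of the 6 samples, and stimulated replicate 1 lay within the unstimulated range. The group means were 0.35 above the bound in stimulated and 0.11 above it in unstimulated cells on the log2 scale. The difference was 0.24 (95% interval -0.221 to 0.697, limma adjusted p = 0.99997). A probe set this close to its lower bound can show little of a change in RNA, and background was not analysed here.

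Plpp1, which encodes a phosphatase that removes phosphate from lipids such as lysophosphatidic acid at the cell surface, had the largest difference of the 9 genes. Its intensity was 30.73, 33.7 and 30.14 in stimulated replicates 1, 2 and 3, against 43.5, 71.3 and 77.8 in unstimulated replicates 1, 2 and 3. All 3 stimulated samples lay below all 3 unstimulated samples, and they were close together, while unstimulated replicate 1 stood apart from the other two of its group. The log2 mean was 4.98 ± 0.09 in stimulated and 5.96 ± 0.45 in unstimulated cells (SD, n = 3 each). The difference was -0.98 ± 0.25 (SE, 95% interval -1.56 to -0.408), a level 1.98-fold lower in stimulated cells. The stimulated mean lay 0.65 above the inclusion bound on the log2 scale, so this ratio of intensities can understate a change in RNA.

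Over all genes Plpp1 did not pass the threshold of an adjusted p under 0.05 (limma adjusted p = 0.96786). Its unadjusted p of 0.00477 in the limma fit ranked 63 among 12780 genes. The difference ran from -1.24 to -0.82 when 1 array at a time was left out. With array weights, which count arrays of smaller residual spread more heavily, it was -1.27 and passed (limma adjusted p = 0.04111). Those weights were 6.14 for unstimulated replicate 3 and 2.2 for stimulated replicate 3, against 0.475 to 0.59 for the other 4 arrays, so 1 array per group carried most of the weight in that call. In bulk samples fewer cells of a type and less RNA per cell cannot be told apart. Of the fibroblast and endothelial markers 6 of 8 were measured, none at 0, and their summed intensity was 204 to 292 in stimulated and 236 to 278 in unstimulated samples, which overlapped. The brightest were the collagen genes Col1a1 (5.96 in stimulated and 6.06 in unstimulated cells), Col1a2 (5.79 and 5.94) and Col3a1 (5.68 and 5.6). Whether other cells had a part in the Plpp1 difference was not tested.

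The other lipid phosphate phosphatase genes and their relatives did not share a difference of this size. Of 11 listed, 9 were measured and 0 passed in either direction (0 also had an unadjusted p under 0.05 in the limma fit), with differences from -0.29 to 0.29 and a median of -0.03, beside 0.005 over all genes. Plppr4, which encodes a relative known from neurons, was the brightest at 7.98 in stimulated and 8.0 in unstimulated cells, and Plpp6 followed at 6.83 and 6.82. Plpp5 was at 6.52 in stimulated and 6.22 in unstimulated cells.

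Among the genes of proteins that the sort excluded, Epcam, which encodes the adhesion molecule CD326 of epithelia and Langerhans cells, had higher values in stimulated cells. Its intensity was 41.2, 45.4 and 33.3 in stimulated replicates 1, 2 and 3, against 26.24, 24.17 and 29.89 in unstimulated replicates 1, 2 and 3. The groups did not overlap, although stimulated replicate 3 and unstimulated replicate 3 were near each other. The log2 mean was 5.31 ± 0.23 in stimulated and 4.74 ± 0.15 in unstimulated cells (SD, n = 3 each). The difference was 0.57 ± 0.19 (SE, 95% interval 0.133 to 1.013), a ratio of 1.49, and it did not pass over all genes (limma adjusted p = 0.99997). It was 0.31 with array weights.

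Summed markers of Langerhans cells and of keratinocytes overlapped between the groups. Of 6 Langerhans cell markers 4 were measured, none at 0, and their summed intensity was 270 to 465 in stimulated and 264 to 457 in unstimulated samples. The brightest was Mfge8, which encodes a secreted protein that bridges phagocytes to dying cells, at 7.83 in stimulated and 7.70 in unstimulated cells. Mfge8 weighs most in that sum, and its SD was 0.78 in stimulated and 0.67 in unstimulated cells (n = 3 each). The tight junction gene Cldn1 was at 5.39 and 5.54. Cd207, which encodes langerin and is also found in skin cDC1, was at 5.02 ± 0.21 in stimulated and 5.08 ± 0.17 in unstimulated cells (SD, n = 3 each). Plek2, a pleckstrin family gene of the same list differed by 0.82 (95% interval 0.202 to 1.445, limma adjusted p = 0.99997) with groups that did not overlap. Of 8 keratinocyte markers 6 were measured, none at 0, with summed intensities of 154 to 170 in stimulated and 165 to 192 in unstimulated samples, led by Sfn (5.52 in stimulated and 5.62 in unstimulated cells) and the keratin genes Krt10 (4.85 and 4.88) and Krt14 (4.68 and 4.73). The part of such cells in the Epcam difference was not tested.

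Sirpa encodes the inhibitory receptor for CD47 that marks the other conventional dendritic cells, cDC2, and macrophages. Its intensity was 28.03, 30.21 and 26.95 in stimulated replicates 1, 2 and 3, against 26.05, 24.86 and 25.67 in unstimulated replicates 1, 2 and 3. The groups did not overlap, but the difference of 0.15 on the log2 scale had a 95% interval of -0.201 to 0.506 (limma adjusted p = 0.99997). The error that limma gives a gene draws partly on all genes, and the SD of Sirpa was among the smallest of all. Sirpa was 0.50 above the inclusion bound in stimulated and 0.35 above it in unstimulated cells.

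Other markers of cDC2 had summed intensities that overlapped between groups. Of 16 listed, 10 were measured, none at 0, and 0 passed in either direction (0 had an unadjusted p under 0.05 in the limma fit). There were 7 positive and 3 negative differences, with a median of 0.10. The largest positive ones were 0.72 for Esam, 0.48 for Cd7, 0.46 for Irf4 and 0.39 for Clec12a. The 3 negative ones were -0.32 for Zeb2, -0.12 for Csf1r and -0.11 for Notch2. The groups did not overlap for 1 of the 10, Cd7, at 5.37 in stimulated and 4.89 in unstimulated cells. Esam was at 5.49 ± 0.42 and 4.77 ± 0.66 (SD, n = 3 each), and its groups overlapped. The summed intensity was 460 to 793 in stimulated and 426 to 744 in unstimulated samples. The brightest was Notch2, a receptor that also acts in other cells, at 7.46 ± 1.15 in stimulated and 7.57 ± 1.13 in unstimulated cells (SD, n = 3 each). Notch2 thus weighs heavily in the summed intensity. Dtx1, a Notch pathway gene, was at 6.28 and 6.23, and the fractalkine receptor gene Cx3cr1 at 5.53 and 5.47 in stimulated and unstimulated cells. Itgam, Clec10a, Mgl2, Cd209a, Clec4a4 and Clec4a2 of this list were not analysed here. Irf4, the transcription factor of cDC2, was at 5.68 ± 0.61 in stimulated and 5.22 ± 0.31 in unstimulated cells (SD, n = 3 each).

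Itgae encodes the alpha E chain of the integrin CD103, which binds E-cadherin on epithelia and marks the migratory cDC1 of several tissues. Its intensity was 34.5, 29.24 and 27.54 in stimulated replicates 1, 2 and 3, against 24.52, 29.61 and 27.14 in unstimulated replicates 1, 2 and 3. Stimulated replicate 1 was the highest and unstimulated replicate 1 the lowest, and the other 4 samples lay between them. The difference was 0.17 (95% interval -0.24 to 0.571, limma adjusted p = 0.99997) and was 0.07 without stimulated replicate 1. Its beta chain partner Itgb7 was at 4.73 ± 0.06 in stimulated and 4.58 ± 0.21 in unstimulated cells (SD, n = 3 each).

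Ptprc encodes the phosphatase CD45 of all leukocytes, and B220, used in the sort to exclude B cells, is 1 of its splice forms. The single probe set does not tell these forms apart. Its intensity was 139.9, 99.8 and 116.3 in stimulated replicates 1, 2 and 3, against 162.1, 102.2 and 146.7 in unstimulated replicates 1, 2 and 3. Replicate 1 was the highest and replicate 2 the lowest in both groups, as for Irf8, and the groups overlapped. The difference was -0.19 (95% interval -0.743 to 0.355, limma adjusted p = 0.99997). Of 10 B cell markers 4 were measured, none at 0, with summed intensities of 114 to 177 in stimulated and 119 to 196 in unstimulated samples, and Ighm, the IgM heavy chain gene, was the brightest at 5.30 and 5.47. Pax5, the B cell transcription factor gene, was at 5.16 and 5.43, and Cd79b, a B cell receptor chain gene, at 5.30 and 5.28 in stimulated and unstimulated cells.

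**Figure D2:**
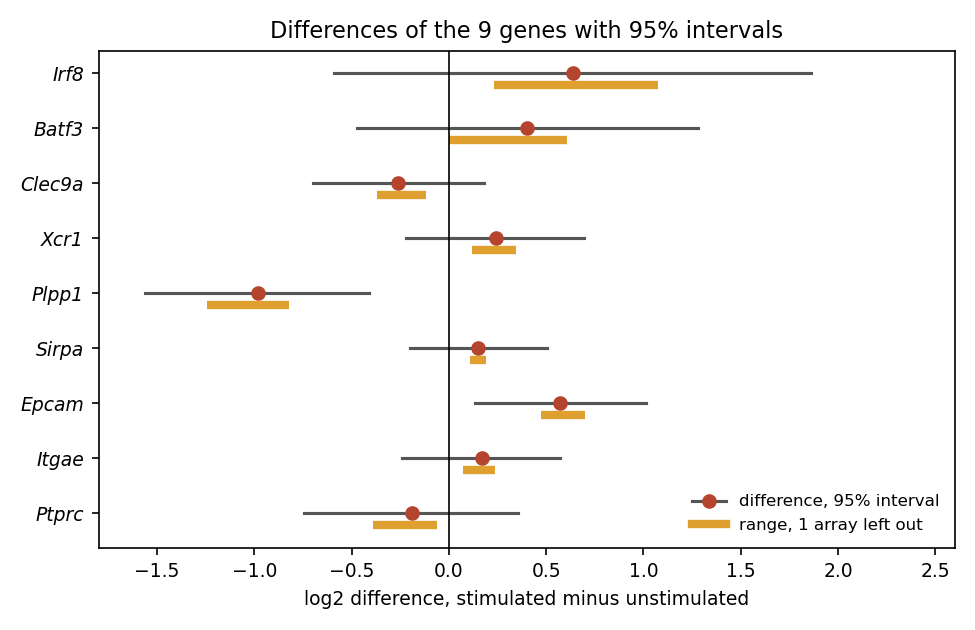
Log2 difference of each gene, stimulated minus unstimulated (horizontal axis), as a red point with its 95% interval (grey line), and the range of the difference when 1 of the 6 arrays was left out (yellow bar). The intervals of Plpp1 and Epcam exclude 0 and those of the other 7 genes hold it, and the bar of Batf3 reaches down to 0.002.

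**Figure D3:**
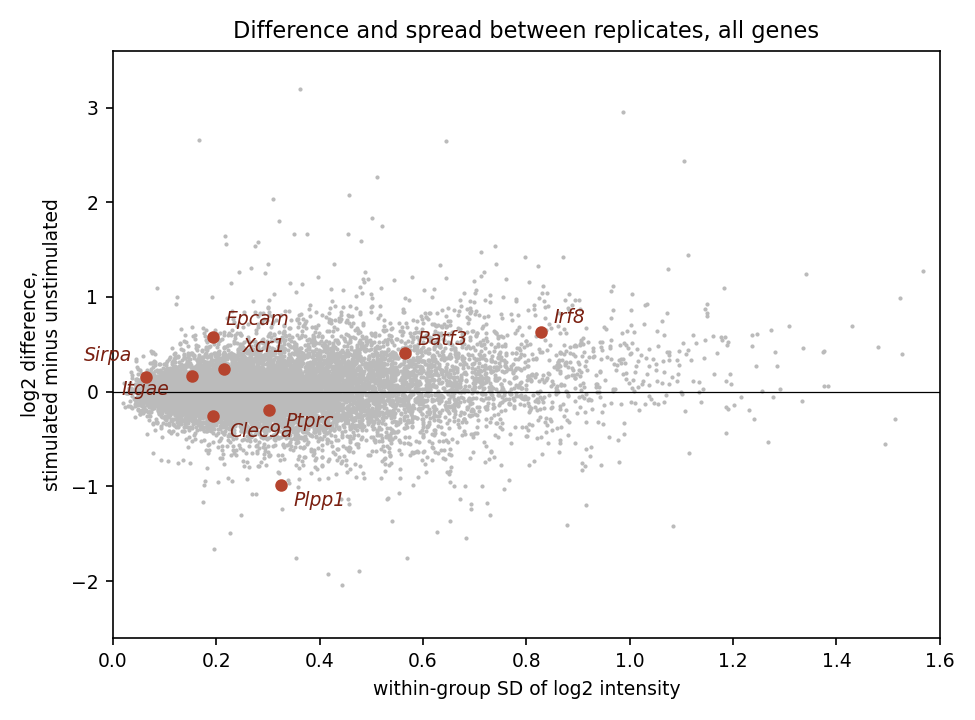
Log2 difference, stimulated minus unstimulated (vertical axis), against the within-group SD of log2 intensity (horizontal axis) for 12780 genes (grey), with the 9 genes in red; 1 gene lies outside the axes. Irf8 and Batf3 sit at SDs of 0.83 and 0.57, Sirpa at 0.06, and Plpp1 is the lowest of the 9 at -0.98.

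The remaining genes of the gate were measured except Itgax, which encodes CD11c and was not analysed here. Cd40, whose protein all cells carried and which the stimulating antibody binds, was at 10.08, 9.05 and 9.70 in stimulated replicates 1, 2 and 3, against 8.91, 8.13 and 8.77 in unstimulated replicates 1, 2 and 3 on the log2 scale. The groups did not overlap, and the difference of 1.01 (95% interval 0.256 to 1.759) did not pass over all genes (limma adjusted p = 0.99997). Of the MHC class II chains, H2-Aa was at 12.55 ± 0.46 in stimulated and 12.55 ± 0.34 in unstimulated cells, H2-Ab1 at 10.14 ± 0.49 and 9.75 ± 0.08, and H2-Eb1 at 10.19 ± 0.95 and 9.96 ± 0.76 (SD, n = 3 each). Of the 8 measured gate genes, including Ptprc, Epcam, Sirpa and Xcr1, 0 passed (2 had an unadjusted p under 0.05 in the limma fit) and 4 had groups that did not overlap, all of them higher in stimulated cells, beside 3.68% of all genes. Epcam and Sirpa are 2 of these 4.

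Further genes that define cDC1 held no called difference. Of 23 listed, 16 were measured and 0 passed in either direction (1 had an unadjusted p under 0.05 in the limma fit), with 6 positive and 10 negative differences and a median of -0.05. Cd24a, a surface glycoprotein gene used to tell cDC1 from cDC2, was at 10.78 ± 0.10 in stimulated and 11.26 ± 0.09 in unstimulated cells (SD, n = 3 each), and its groups did not overlap. It differed by -0.48 (95% interval -0.844 to -0.111, limma adjusted p = 0.99997). Id2, which encodes an inhibitor of E proteins needed for cDC1, was at 11.11 and 10.91, and Flt3, the receptor for the dendritic cell growth factor, at 10.64 and 10.95 in stimulated and unstimulated cells. Nfil3, an early factor of the cDC1 lineage, was at 10.31 and 10.44.

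Genes of this list near the inclusion bound included Wdfy4, which cross-presentation in cDC1 requires, at 4.90 ± 0.06 in stimulated and 4.91 ± 0.36 in unstimulated cells, and Cd8a, which marks resident cDC1, at 4.27 ± 0.13 and 4.45 ± 0.17 (SD, n = 3 each); both are named here after their values were seen. The other 7 listed genes, Tlr3 among them, were not analysed here. Checked against the label, the cDC1 genes Irf8, Batf3, Id2, Flt3 and Cd24a lay far above the inclusion bound in both groups. Clec9a lay 2.09 above it in stimulated and 2.35 above it in unstimulated cells on the log2 scale. Xcr1, Itgae, Wdfy4, Cd8a and, in stimulated cells, Plpp1 lay near it. Further listed genes were also low, among them Snx22 (4.57 in stimulated and 4.60 in unstimulated cells), Cxcl9 (4.22 and 4.49), Ifi205 (5.03 and 4.64), Naaa (5.11 and 5.18) and Cd207, given above. Higher levels were seen for Ly75 (10.04 in stimulated and 9.81 in unstimulated cells), Cadm1 (7.79 and 7.43) and Gcsam (7.71 and 7.14). Zbtb46 (7.19 and 7.01) and Bcl6 (6.74 and 6.98) were also higher. Cd8a, as a marker of resident cDC1, need not be high in migratory cells. The listed genes were thus in part high and in part low, which does not settle the label.

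Transcription factors of dendritic cell development were next set beside Irf8 and Batf3. Of 24 listed, 22 were measured and 0 passed in either direction (1 had an unadjusted p under 0.05 in the limma fit), with a median difference of 0.08. The brightest were Stat3, which acts downstream of FLT3, at 11.27 ± 0.56 in stimulated and 11.56 ± 0.63 in unstimulated cells, and Id2 and Nfil3, given above (SD, n = 3 each). The 1 gene with an unadjusted p under 0.05 was Rbpj, the DNA-binding factor of Notch signalling, which is named for that reason. It was at 7.0 ± 0.43 in stimulated and 7.85 ± 0.14 in unstimulated cells (SD, n = 3 each), a difference of -0.84 (95% interval -1.414 to -0.275, limma adjusted p = 0.99997) with groups that did not overlap.

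Relatives and partners of IRF8 and BATF3 were examined next. Of 16 other IRF, BATF and JUN genes, 14 were measured and 0 passed in either direction (0 had an unadjusted p under 0.05 in the limma fit), with 8 positive and 6 negative differences and a median of 0.06. Irf1, an interferon-induced factor, was at 9.47 ± 0.71 in stimulated and 8.64 ± 0.69 in unstimulated cells (SD, n = 3 each), and its difference of 0.82 had a 95% interval of -0.231 to 1.879. Junb, a partner of BATF proteins, differed by 0.97 (-0.358 to 2.302), and Irf5 by 0.08 (-1.296 to 1.455).

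Of 23 ligands and intracellular partners of the surface proteins, 19 were measured and 0 passed in either direction (1 had an unadjusted p under 0.05 in the limma fit), with a median of 0.11. Cd47, the ligand of SIRPA, was at 10.69 ± 0.40 in stimulated and 10.73 ± 0.08 in unstimulated cells, the tetraspanin gene Cd9 at 9.24 ± 0.27 and 9.75 ± 0.52, and Skap2, an adaptor gene, at 7.86 ± 0.06 and 7.88 ± 0.46 (SD, n = 3 each). Ptpn11, which encodes the phosphatase SHP-2 that binds SIRPA, was the 1 gene with an unadjusted p under 0.05. It differed by 0.61 (95% interval 0.062 to 1.158, limma adjusted p = 0.99997).

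**Figure D4:**
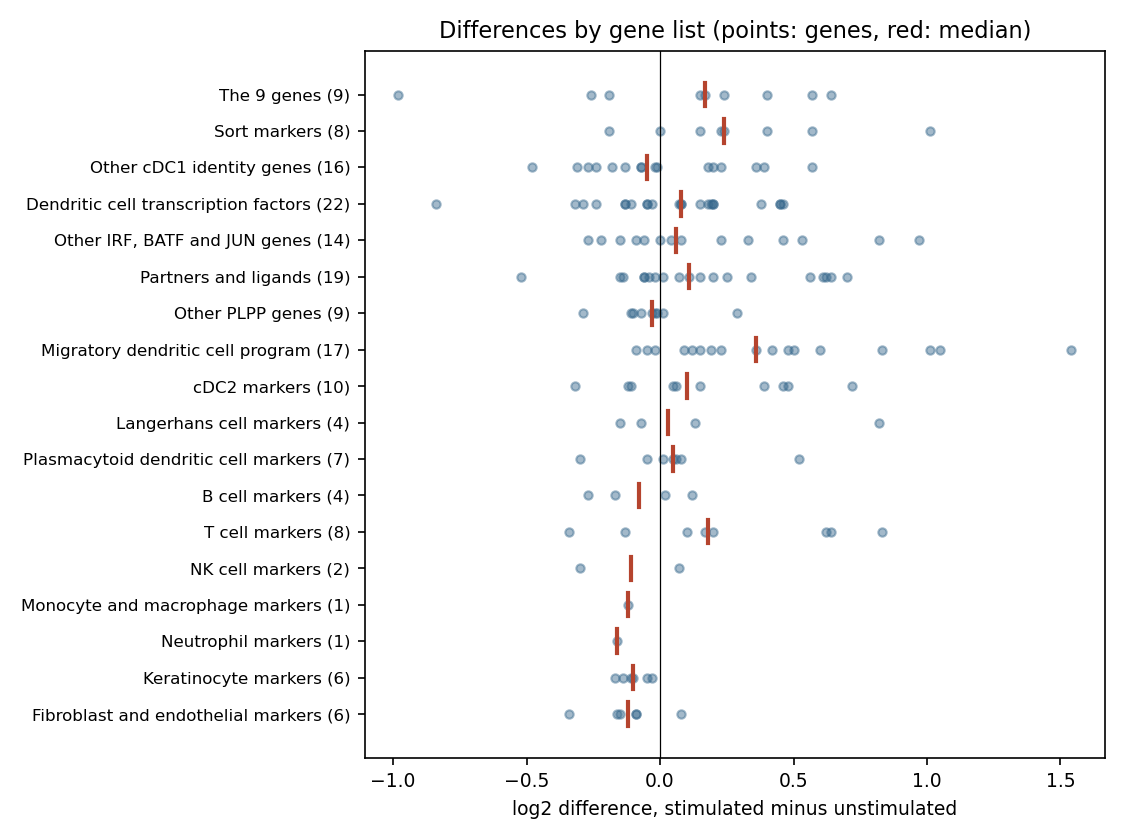
Log2 difference, stimulated minus unstimulated (horizontal axis), of each measured gene (blue points) of the 9 genes and of 17 further lists, with the median of each list in red and the number measured in parentheses. The migratory dendritic cell program had the highest median, 0.36, and the lists of other cell types had medians between -0.16 and 0.18.

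The migratory state named in the labels was checked on 19 genes, of which 17 were measured. Ccr7, the receptor that brings dendritic cells to lymph nodes, was at 12.66 ± 0.30 in stimulated and 12.51 ± 0.29 in unstimulated cells, Tmem123 at 12.48 ± 0.16 and 12.57 ± 0.07, the chemokine gene Ccl5 at 11.79 ± 0.36 and 11.70 ± 0.17, and Fscn1, an actin-bundling gene of mature dendritic cells, at 12.08 ± 1.01 and 11.25 ± 1.27 (SD, n = 3 each). The median difference of the list was 0.36, with 14 of the 17 positive and 3 negative. Of the 17, 0 passed in either direction (5 had an unadjusted p under 0.05 in the limma fit). These 5 were Cd86, Cd200, Cd40, Cd80 and Socs2, with differences of 1.54, 1.05, 1.01, 0.6 and 0.48. Cd86 had the lowest p of the list (limma adjusted p = 0.20803). The groups did not overlap for 6 of the 17, all higher in stimulated cells, beside 3.68% of all genes. The list shares Cd40 with the gate genes.

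Markers of other cells that a lymph node sort could hold were counted in the same way. Of 11 T cell markers 8 were measured, none at 0, led by Cd5 at 5.78 in stimulated and 5.67 in unstimulated cells, Cd3e at 5.63 and 5.44, and Cd6 at 4.98 and 5.32. Their summed intensities were 245 to 417 in stimulated and 222 to 309 in unstimulated samples. Stimulated replicate 3 was the highest of the 6 samples for 3 further genes of this list, at 6.38 for the adaptor gene Lat, 5.97 for Cd3d and 6.12 for Cd3g, where the other 5 samples were 4.34 to 5.18 for Lat, 4.05 to 5.20 for Cd3d and 4.17 to 5.97 for Cd3g on the log2 scale. Cd5 was also highest in that array, at 6.22, while Cd3e (5.59), Cd6 (4.95), Cd2 (4.75) and Bcl11b (4.41) were not. Whether that array held more T cell RNA, or whether such RNA had a part in the differences of the 9 genes, was not tested. The differences without that array are given in the closing section. Of 10 plasmacytoid dendritic cell markers 7 were measured, none at 0, with sums of 298 to 349 in stimulated and 287 to 317 in unstimulated samples, led by the transcription factor gene Tcf4 (6.91 and 6.83), Cox6a2 (5.09 and 5.39) and Lag3 (5.09 and 5.04). Of 12 monocyte and macrophage markers 1 was measured, Csf1r, at 4.64 and 4.76. Of 7 neutrophil markers 1 was measured, S100a9, at 4.39 and 4.56, and of 8 NK cell markers 2 were measured, Prf1 at 5.10 and 5.03 and Klrd1 at 4.58 and 4.88, in stimulated and unstimulated cells. In these 5 lists 0 genes passed (0 had an unadjusted p under 0.05 in the limma fit).

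Genes whose pattern over the 6 arrays was most like that of 4 of the genes were found by the root mean square distance between log2 values, each gene first centred on its own mean, among 6221 or 6222 genes of at least median level. Nearest to Irf8 were Tapbpl, Cbfa2t3 and Ap2m1, at a distance of 0.11 each, where the median distance was 0.67. Nearest to Batf3 were Psmb4 (0.09), Grpel1 (0.10) and Clpp (0.10), with a median of 0.54. Nearest to Clec9a were Sp100 (0.04), Bbs2 (0.06) and Drosha (0.06), and nearest to Itgae were Snx9 (0.05), Gpalpp1 (0.07) and Tnfaip8 (0.08). The 3 genes nearest to Irf8 differed by 0.59, 0.62 and 0.44 between the groups. These arrays share the replicate order described for the interquartile ranges, so a small distance describes these 6 arrays alone.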

How the data were processed

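Per the labels' protocols, total RNA of sorted cells was column-extracted and made into biotinylated cDNA with a kit for very small RNA amounts. The arrays were processed by the authors in Affymetrix Expression Console with RMA, per the submitters' processing notes. RMA corrects background, normalises arrays by quantiles and summarises probe sets. Versions are not stated in these sources. The deposited intensity values of 17551 probe sets are on a linear scale, and their log2 was taken. The interquartile ranges of the log2 values over genes still differed between arrays, from 1.74 to 2.31, and the cause was not tested. Precision is limited by 6 arrays.

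Of the probe sets, 13963 had 1 symbol in the platform annotation, 970 several and 2618 none. The brightest probe set per gene left 12780 genes, fitted with limma 3.58.1 in R 4.3.3 (stimulated minus unstimulated, no covariates, two-sided, Benjamini-Hochberg over all genes, called at 0.05). Tested on simulated data for the stimulated against unstimulated comparison with 12780 genes, the fit recovered 32 of 100 genes changed by 1 and 87 of 100 changed by 3 on the log2 scale, with 10 false calls. The simulated noise was independent between genes and arrays. Deviations that same-numbered arrays share were not simulated, so these rates may not hold for the real arrays. The rule for named genes took the 9 genes, all measured gate genes and, per further list, the called genes or, failing any, the 3 brightest. Fscn1, Cd86, Cd200, Cd80, Socs2, Irf4, Cd207, Itgb7, Ptpn11, Rbpj, Wdfy4, Cd8a, Lat, Cd3d and Cd3g fall outside it and were chosen after their values were seen. Alternatives were an intensity trend, a dim-gene filter, further normalization, centring, array weights, a replicate block, array spread, single arrays left out and other probe set rules. Members and lists were chosen with earlier results of these data known. Figures used matplotlib 3.10.9 in Python 3.11.15.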

Additional observations from a re-analysis of the deposited data

How the results depend on the processing

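The difference of each of the 9 genes kept its direction in every alternative run, 15 each for Irf8, Batf3, Clec9a, Plpp1 and Ptprc and 14 each for Xcr1, Sirpa, Epcam and Itgae, which a filter on dim genes removed. Of the 9, 0 passed in every alternative but array weights, with which 1 passed, Plpp1. Leaving out 1 array at a time moved Irf8 between 0.23 and 1.07 and Batf3 between 0.002 and 0.61, and gave 0 genes called in either direction over all genes and 0 of the 9. The counts over all genes, 2 higher and 0 lower, became 5 and 1 with quantile normalization once more, 3 and 1 with arrays centred on medians, 28 and 18 with array weights, and 11 and 4 when the interquartile ranges of the arrays entered the fit. With the replicate number as a block they were 30 and 8, and 0 of the 9 passed; Irf8 then had a 95% interval of 0.276 to 0.995 (limma adjusted p = 0.1983). The labels state no pairing: deviations from group means correlated at 0.73, 0.59 and 0.06 between same-numbered arrays 1, 2 and 3, while unstimulated replicate 3 correlated at 0.19 with stimulated replicate 2, so not every array correlated best with its own number. Low signal limits Xcr1, Sirpa, Itgae and Epcam, whose group means lay within 0.99 of the inclusion bound on the log2 scale, and Plpp1, whose stimulated mean lay 0.65 above it. Without stimulated replicate 3 the differences were 0.57 for Irf8, 0.19 for Batf3, -0.12 for Clec9a, 0.12 for Xcr1, -0.95 for Plpp1, 0.19 for Sirpa, 0.70 for Epcam, 0.24 for Itgae and -0.19 for Ptprc. The causes of these changes were not tested.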
